A study of Mus musculus with 12 samples.

Results

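Arg1-high macrophages of MC38 tumors were taken from the pooled scRNA-Seq matrix by a rule on the unique molecular identifiers (UMIs) of each cell. The rule first kept cells with over 200 but under 5000 detected genes in which mitochondrial genes made up no more than 10% of the UMIs. It then gated macrophages by at least 2 UMIs of Adgre1 (F4/80) and Csf1r (the CSF1 receptor) together, with no UMI of the CD3 chains Cd3d, Cd3e and Cd3g or of the cycling genes Mki67 and Top2a. Within this gate, a cell was a member when Arg1 reached 5 and Cxcl9 stayed under 2 UMIs per 10000 UMIs of that cell. There were 15414 members, 28.6% of the 53868 cells in the gate (95% Clopper-Pearson interval 28.2 to 29.0%, covering the error of counting alone). Their share of the 128912 cells kept from 140639 barcodes had an interval of 11.8 to 12.1%. The remaining cells of the gate served for comparison and comprised 21963 Arg1-low Cxcl9-low cells (40.8%), 11714 Cxcl9-high cells with low Arg1 (21.7%) and 4777 cells with both genes high (8.87%).

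The study combined an inhibitor of the histone methyltransferase EZH2 with an agonist antibody to the costimulatory receptor 4-1BB. Its scRNA-Seq asked how the inhibitor affects CD8+ T cells of the tumor. Its labels list 12 C57BL/6 mice in 4 groups of 3, each given vehicle or the EZH2 inhibitor PF-06821497 (EZH2i, 100 mg/kg, subcutaneous, daily) for 7 or 16 days. All of them carried subcutaneous tumors of MC38, a transplanted mouse colon carcinoma line, and were killed on day 17 after implantation. CD45+ cells, the leukocytes, were enriched from each tumor with magnetic beads before library preparation. Barcodes carry a library number from 1 to 12 that no sample label names, and groups were not assigned from the order or the cell numbers of the libraries. The matrix was therefore handled as 1 pooled sample, EZH2i was not compared with vehicle, and library values are given as the lowest, the median and the highest of the 12 without a test.

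Arginase 1, encoded by Arg1, splits arginine into ornithine and urea. In macrophages it competes for arginine with the inducible nitric oxide synthase Nos2, and the ornithine feeds polyamine and proline synthesis. Arg1 is induced by interleukin 4, by lactate and by low oxygen, and arginase-expressing macrophages are known from tumors as cells that deplete arginine from their surroundings. Cxcl9 is a chemokine induced by interferon gamma that attracts T cells through CXCR3, so the rule separates cells on a gene of tissue repair and on a gene of the interferon response.

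The libraries differed in ways that bear on all values below. Members had a median of 6508.5 UMIs and 2142 detected genes per cell, against 5838 UMIs in Arg1-low cells, and were the deeper class in 9 of 12 libraries. Their median share of mitochondrial UMIs was 4.17% against 4.56%, lower in 11 of 12 libraries, and the part of depth and quality in the differences was not tested beyond the thinning described below and a stricter mitochondrial limit. In the members, the median UMIs per library ran from 2359 in library 6 to 18677.5 in library 8. Transcripts of the Y chromosome were found in the gated cells of libraries 1 to 6, at 126 to 214 CPM (UMIs of the gene per 1000000 UMIs), and were at 0 in libraries 7 to 12, whereas the study's methods describe female mice. Results were therefore also computed within each of these library sets. Library 4 stood apart, with heat shock genes summing to 6065 CPM in its members against a median of 3224 CPM over libraries, and with the highest level of neutrophil markers. Of the members, 427 (2.77%) had a barcode that also occurs in another library, and 48 of them shared it with a member there. Since the rule used the cells in which everything was measured, differences from the other classes are described and not tested, and fewer molecules of a gene per cell cannot be told apart from fewer cells that carry it in the summed counts.

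The defining macrophage genes were present in the members. A UMI of Adgre1 was found in 78.8% of them and of Csf1r in 94.5%, which the gate fixed in part. Most macrophage genes outside the rule were widespread as well. The lysozyme gene Lyz2 was detected in 99.4% of members, Apoe in 99.7%, the complement subunits C1qa and C1qb in 94.1 and 95.7%, Cd68 in 88.6% and the lipid receptor Trem2 in 85.7%. The Fc receptor Fcgr1 was found in 76.6% and Mertk, a receptor for the uptake of dead cells, in 36.3%. The monocyte gene Ly6c2 was found in 3493 members (22.7%), of which 223 had no UMI of C1qa, C1qb or C1qc. Among other genes of the monocyte list, Ly6a was found in 76.5%, Ms4a4c in 62.5%, Cx3cr1 in 55.7% and Ccr2 in 38.6% of members. The summed macrophage markers reached 33510, 44027 and 53623 CPM (lowest, median and highest library), against 33764, 47456 and 63223 CPM in Arg1-low cells, and were lower in the members in 10 of 12 libraries. For a background, 5438 T cells with at least 3 CD3 UMIs and no UMI of Adgre1 or Csf1r, at a median of 3159.5 UMIs, had a UMI of Cd68 in 12.6%, of Trem2 in 8.13%, of Fcgr1 in 6.68% and of Mertk in 0.828%. The shares in T cells were higher for C1qa (37.1%), Lyz2 (53.8%) and Apoe (82.6%), and for Ly6a (68.6%) and Ly6c2 (31.8%), which T cells also express. The Ly6c2 share of the members was thus no higher than that of T cells, whereas those of Cd68, Trem2, Fcgr1 and Mertk were well above those of T cells. These T cells were chosen without Adgre1 and Csf1r and were shallower than the members. Both favor low shares of macrophage genes in them.

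Markers of other cells were at a lower level than the macrophage markers. Summed neutrophil markers were 85.0, 140 and 1389 CPM in members and 148, 269 and 1100 CPM in Arg1-low cells, lower in the members in 11 of 12 libraries, and the highest value of both classes was that of library 4. Its S100a8, a neutrophil granule protein, reached 462 CPM in members, against a median of 17.6 CPM. Dendritic cell markers summed to 10.7, 24.7 and 64.3 CPM against 18.6, 41.9 and 90.6 CPM, lower in the members in 12 of 12 libraries. Without H2-DMb2, an MHC class II gene on that list, they were 12.8 against 23.0 CPM in pooled counts, lower in 11 of 12. T and NK cell markers stayed between 4.12 and 62.9 CPM, B and plasma cell markers between 5.40 and 35.4 CPM, and tumor and stromal markers between 8.64 and 32.6 CPM, ranges that overlap those of Arg1-low cells throughout. Monocyte markers summed to 1476, 2535 and 4281 CPM against 2158, 2759 and 4154 CPM, lower in 11 of 12 libraries. Of the 9 monocyte genes at 50 CPM or more, 7 were lower and 2 higher by the median of libraries. Red blood cell markers summed to 0.26, 2.78 and 233 CPM against 0.17, 1.70 and 404 CPM. Mast cell and basophil markers summed to 0, 0.24 and 1.13 CPM against 0, 0.14 and 0.65 CPM, higher in the members in 9 of 12 libraries. Of this list, Mcpt8 and Ms4a2 had no UMI in any member. A UMI of Mcpt4 was found in 19 members, of Cpa3 in 16, of Gata2 in 13 and of Fcer1a in 1. Krt8, a keratin of the carcinoma, had a UMI in 1 member. Without the cells that had a UMI of a neutrophil, T, NK or B cell marker, 76 genes were higher and 19 lower past the fold explained below than in Arg1-low cells, against 72 and 19 with them. The part of the monocyte and dendritic cell markers was not tested.

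The share of members among gated macrophages varied widely between libraries. It was 28.2% in library 1, 26.2% in library 2, 29.5% in library 3, 53.4% in library 4, 18.7% in library 5 and 21.6% in library 6. Library 7 held 50.3%, library 8 held 32.5%, library 9 held 23.1%, library 10 held 28.9%, library 11 held 29.8% and library 12 held 29.9%. Libraries 4 and 7 thus lay above all others, with intervals of 52.0 to 54.8% and 48.6 to 52.0%, and the other 10 libraries lay between 18.7 and 32.5%. With double-high cells included, cells at or above the Arg1 limit made up 30.1 to 36.2% of the gate in those 10 libraries. This share was 32.9 and 31.6% in libraries 5 and 6, and 54.7 and 67.8% in libraries 4 and 7. In shallow cells a single Cxcl9 UMI reaches the limit of 2 per 10000, and its part in the member shares was not tested. The median was 27.2% over libraries with Y-linked transcripts and 29.9% over those without. Leaving out library 4 brought the pooled share from 28.6 to 26.2%, and leaving out library 5 or library 6 brought it to 30.7%.

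**Figure D1:**
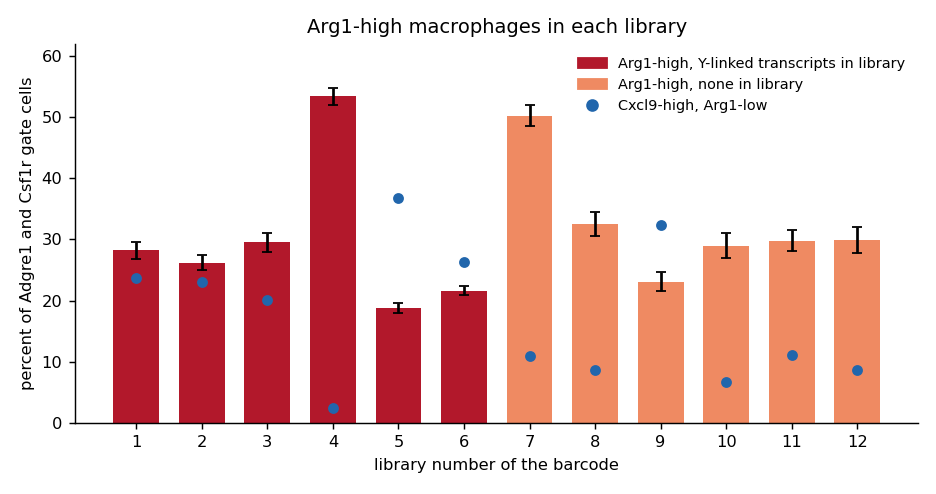
Share of gated macrophages (y axis, percent) in each of the 12 libraries (x axis). Bars are Arg1-high Cxcl9-low cells with 95% Clopper-Pearson intervals, dark in libraries with Y-linked transcripts and light in those without, and blue points are Cxcl9-high Arg1-low cells. Arg1-high cells take 53.4% of library 4 and 50.3% of library 7, where Cxcl9-high cells take 2.34 and 10.9%.

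The Cxcl9-high class ran from 2.34% of gated cells in library 4 to 36.8% in library 5. These were, in turn, the libraries with the highest and the lowest share of members, which the shared denominator favors. Pooled, 23.7% of cells at or above the Arg1 limit were also at or above the Cxcl9 limit, against 34.8% of the cells below the Arg1 limit, and the first share was the lower in 12 of 12 libraries. Both genes were nevertheless found together in every library, with the double-high class taking 1.16% of the gate in library 10, a median of 6.52% and 17.5% in library 7. Both genes and limits are those of the rule and depth was not matched, so these shares describe the classes and are no test.

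Arg1 itself, located on chromosome 10 (24915221 to 24927484, minus strand, mm10), spanned a wide range inside the class. The lowest member had 5 UMIs per 10000, the median 15.3, the quartiles 8.68 and 29.2 and the highest 235. Median levels per library went from 10.5 in library 6, the shallowest library, to 26.0 in library 7. In 7929 members (51.4%) Arg1 was counted at least 10 times, whereas 572 members (3.71%) rested on a single Arg1 UMI, 485 of them in library 6. Just inside the limit, 1249 cells with 5 to under 6 Arg1 UMIs per 10000 had a median of 3 Arg1 UMIs among 5519 UMIs. Just outside, 1413 cells with 4 to under 5 also had a median of 3, among 6350 UMIs, so the limit divides cells that the counts hardly separate.

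In summed counts, Arg1 reached 1360, 2134 and 3228 CPM in members, and 67.6, 112 and 138 CPM in Arg1-low cells. Of the Arg1-low cells 37.1% still had an Arg1 UMI. Of the 5438 T cells, which do not express Arg1, 8.85% had an Arg1 UMI and 2.68% reached 5 per 10000. Among the 1836 of them without a UMI of C1qa or Lyz2, at a median depth of 2180 UMIs, these shares were 4.74 and 1.96%. Both sets of T cells were chosen without macrophage transcripts and were shallower than the members, which favors low shares. Neutrophils, which can express the gene, reached 14.2% with a UMI and B cells 1.23%, at median depths of 1430.5 and 1297.5 UMIs.

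Beyond the genes of the rule, the members had higher levels than Arg1-low cells of most hypoxia and glycolysis genes and of some matrix and lipid-handling genes, and lower levels of MHC class II genes. Values are log2 ratios of CPM with 5 CPM added to both sides, computed within each library and summarised by the median of 12 libraries, which understates the change of low genes. A gene counted as past the fold when it differed at least 1.5-fold with the same sign in every library with at least 50 cells of both classes. The minimum of 50 CPM applied to the counts pooled over libraries in either class, so the median over libraries can lie below it. Of 2828 genes at 50 CPM or more, 72 (2.55%) were higher past the fold and 19 (0.672%) were lower. The median log2 ratio over all 2828 genes was -0.03. As the cells were chosen on Arg1, these shares are the background for the counts below and are no test of them.

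The gene with the highest ratio was Mmp12, the macrophage metalloelastase, a protease that degrades elastin. It measured 133, 642 and 1245 CPM in members against 36.3, 149 and 335 CPM in Arg1-low cells, a median 4.36-fold higher level (log2 2.12, 0.69 to 3.36 over libraries). Its levels overlapped between the classes across libraries, but it was higher in the members of each single library. Spp1, which encodes the secreted matrix protein osteopontin, was the most abundant of the leading genes. It measured 1208, 2696 and 9456 CPM against 564, 905 and 3478 CPM (2.57-fold, log2 1.36, 0.66 to 2.43). Library 10 was highest for Spp1 in both classes. Ccl24, an eotaxin that attracts eosinophils, measured 16.3, 80.6 and 628 CPM against 2.87, 22.1 and 202 CPM (3.45-fold), with library 7 highest in the members.

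Further leading genes were Ndrg1 (97 against 23.4 CPM, medians of libraries), Egln3 (37.5 against 10.1 CPM), Bnip3 (231 against 69.8 CPM), Ero1l (188 against 70 CPM) and the glucose transporter Slc2a1 (160 against 63.9 CPM), all of them known targets of hypoxia-inducible factors. Mt2, a metallothionein that binds zinc and copper, had medians of 165 and 47.1 CPM. Inhba, which encodes the activin A subunit, had medians of 52.5 and 22.1 CPM, and Tnfrsf9, the costimulatory receptor 4-1BB, 40.4 and 7.87 CPM. The remaining genes of the 15 were Slc7a2, Rgcc (93.7 and 41.1 CPM), the membrane protease Adam8 (260 and 110 CPM) and podoplanin, Pdpn (132 and 60.6 CPM). For Bnip3 no library overlapped, since its members began at 131 CPM and Arg1-low cells ended at 97.8 CPM.

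**Figure D2:**
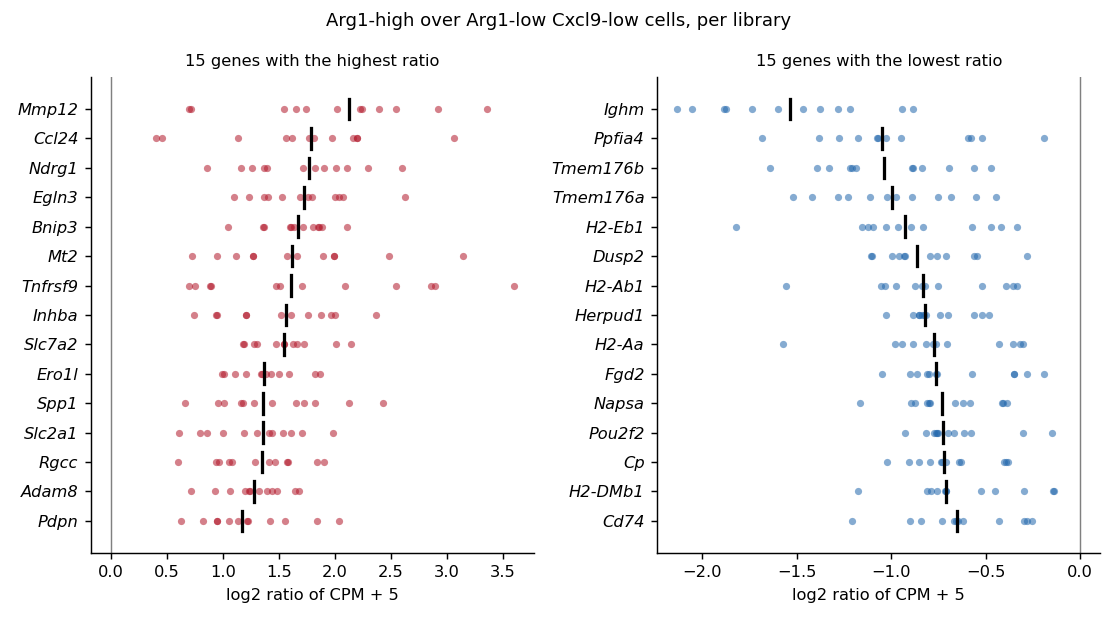
Log2 ratio of CPM + 5 in Arg1-high over Arg1-low Cxcl9-low cells (x axis) for the 15 genes with the highest and the 15 with the lowest ratio (y axis). Each point is 1 of 12 libraries and the black bar their median. Mmp12 has the highest median at 2.12 and Ighm the lowest at -1.53, and Mmp12 and Ccl24 spread over more than 2 log2 units.

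Among the genes with the lowest ratio, Ighm, the heavy chain of immunoglobulin M, came first with 7.88, 19.1 and 113 CPM in members against 43.3, 70.4 and 222 CPM (2.9-fold lower). Library 4 was highest in both classes. B and plasma cell markers summed to a median of 8.48 CPM in members and 11.9 CPM in Arg1-low cells. The log2 ratio of Ighm was -1.53, and -1.55 without the cells that had a UMI of a neutrophil, T, NK or B cell marker. The paired membrane channel genes Tmem176b and Tmem176a, known from dendritic cells and monocytes, measured 114 against 249 CPM (log2 -1.04) and 78.6 against 166 CPM. The others were Ppfia4 (log2 -1.05), Dusp2 (-0.86), Herpud1 (-0.82), Fgd2 (-0.76), Napsa and Pou2f2 (both -0.73), Cp, which encodes ceruloplasmin (-0.72), and 5 MHC class II genes.

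Those 5 genes were H2-Eb1, H2-Ab1 and H2-Aa, the chains that present peptide to CD4 T cells, the invariant chain Cd74, and H2-DMb1, a chain of the peptide exchange factor. H2-Eb1 measured 469, 1715 and 3134 CPM in members against 1008, 3032 and 4526 CPM in Arg1-low cells (1.91-fold lower, log2 -0.93, -1.82 to -0.33). The log2 ratio was -0.83 for H2-Ab1, -0.77 for H2-Aa, -0.71 for H2-DMb1 and -0.65 for Cd74. In each of the 12 libraries the members had the lower level of all 5 genes, although library 10 was the lowest of both classes for H2-Eb1. The whole list of 10 MHC class II genes summed to 7305, 14907 and 22244 CPM in members and 10121, 21597 and 30116 CPM in Arg1-low cells. Of its 7 genes at 50 CPM or more, 5 were lower past the fold and 0 higher, with a median of -0.71. Ciita, the master regulator of the group, lay below the minimum at a median of 16 against 31.9 CPM.

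Cells of differing depth were also compared after thinning each cell to 1000 UMIs at random, which left out 54 members, 126 Arg1-low and 22 Cxcl9-high cells. Mmp12 was then found in 15.4% of members and 5.95% of Arg1-low cells (28.0 and 14.2% unthinned). Bnip3 was found in 19.3 and 7.05% (55.2 and 27.3% unthinned), Spp1 in 55.4 and 33.0% (79.8 and 62.1%), and H2-Eb1 in 54.3 and 67.5%. In the 5438 T cells, unthinned, Spp1 had a UMI in 23.9%, Mmp12 in 5.42% and Bnip3 in 8.79% of cells. In neutrophils, also unthinned and at a median of 1430.5 UMIs, the shares were 41.2% for Spp1, 6.89% for Mmp12 and 40.7% for Bnip3, so a UMI of Spp1 or Bnip3 alone does not mark a macrophage. By the criterion used above, thinning brought the 72 genes higher than in Arg1-low cells to 32 and the 19 lower to 6. For these counts, the gate and the classes were formed anew on the thinned UMIs, where a single Arg1 UMI reaches the limit. The shares above keep the classes of the full counts, and 78.0% of those members kept an Arg1 UMI. The cells behind the counts therefore differ from those behind the shares. For the 4 genes named here the order of both classes was the same at equal depth. For C1qa it was not, with 86.7% of members and 88.8% of Arg1-low cells after thinning and 94.1% of both without.

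Transporters and enzymes of arginine metabolism did not move as a group. Slc7a2, which brings arginine into the cell, measured 59.7, 126 and 382 CPM in members against 18.3, 49.5 and 152 CPM (2.91-fold, log2 1.54, 1.18 to 2.14). The lowest level of both classes was in library 1 and the highest in library 5, so the ratio was steadier than the level. Smox, which oxidises the polyamine spermine, was also past the fold at 132 against 84.9 CPM (log2 0.62). The remaining 5 genes at 50 CPM or more were not past it. Odc1, the first enzyme of polyamine synthesis, lay at log2 -0.04, its regulators Azin1 and Oaz1 at 0.11 and -0.05, and Sat1 at -0.05. Ass1, which rebuilds arginine from citrulline together with Asl, lay at -0.11. Thus 2 of 7 genes were higher past the fold, 0 were lower, and the list median was -0.04.

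Nos2, the nitric oxide synthase that consumes arginine as well, was below the 50 CPM minimum but higher in the members of every library, at 16.5, 40.8 and 71.3 CPM against 2.21, 4.38 and 5.99 CPM (4.33-fold, log2 2.12, 1.22 to 3.27). The classes did not overlap. At 1000 UMIs per cell it was found in 3.14% of members and 0.485% of Arg1-low cells, and, unthinned, in 0.588% of T cells and 13.3% of neutrophils. Arg2, the mitochondrial arginase, was higher in 11 of 12 libraries at 15.5 against 10.6 CPM, also below the minimum.

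Hypoxia and glycolysis genes were higher in the members almost throughout. Cells at low oxygen stabilise hypoxia-inducible factors, which bind the core sequence ACGTG and turn on glucose uptake, glycolysis and genes that adapt mitochondria. Of 13 hypoxia response genes at 50 CPM or more, 11 were higher past the fold and 0 lower, with a median log2 ratio of 0.93. Of 15 glycolysis genes, 13 were higher and 0 lower, with a median of 0.79. Summed, the hypoxia list reached 2981, 3907 and 5033 CPM in members against 1696, 2103 and 2284 CPM, and the glycolysis list 8467, 12049 and 15576 CPM against 5254, 6640 and 8018 CPM. For both lists the lowest library of the members lay above the highest library of the Arg1-low cells.

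In the glycolysis list, Pgk1 (phosphoglycerate kinase) measured 465, 764 and 1035 CPM in members against 235, 334 and 403 CPM, without overlap (2.18-fold, log2 1.13). Tpi1, an isomerase of the pathway, did not overlap either, with 570 to 1046 CPM against 311 to 475 CPM (log2 1.03). Gapdh, often used as a reference gene, was higher as well, at medians of 4064 against 2373 CPM (log2 0.70). Ldha, which makes lactate, followed at 1082 against 637 CPM (0.79), and the lactate exporter Slc16a3 at 0.90. In the hypoxia list, Hilpda, which promotes lipid droplet storage, stood at 520 against 239 CPM (log2 1.17), the oxygen sensor Egln1 at 118 against 53.8 CPM (1.10) and the cytokine Mif at 1449 against 769 CPM (0.93). The angiogenic factor Vegfa measured 215, 318 and 454 CPM against 65.8, 187 and 272 CPM (log2 0.67), and Hif1a itself, encoding the factor's oxygen-regulated subunit, 201 against 160 CPM (0.29, higher in 12 of 12 libraries but not past the fold).

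The promoters of these genes are shown because the ACGTG core can be read in them directly. They come from RefSeq on GRCm38.p6, the patch release of mm10, and span 250 bases before to 50 bases after the transcription start, 5′ to 3′ on the strand of the gene. Capitals mark ACGTG or its reverse complement CACGT. Bnip3, a mitochondrial autophagy receptor, has its promoter at chr7:138909457-138909756 on the minus strand, and Pgk1 at chrX:106186850-106187149, Slc2a1 at chr4:119108495-119108794 and Mmp12 at chr9:7344147-7344446, all on the plus strand. Mmp12 is shown as the leading gene without a match, by the first of its 2 promoters. The other, at chr9:7347124-7347423, held 0 matches as well.
Bnip3: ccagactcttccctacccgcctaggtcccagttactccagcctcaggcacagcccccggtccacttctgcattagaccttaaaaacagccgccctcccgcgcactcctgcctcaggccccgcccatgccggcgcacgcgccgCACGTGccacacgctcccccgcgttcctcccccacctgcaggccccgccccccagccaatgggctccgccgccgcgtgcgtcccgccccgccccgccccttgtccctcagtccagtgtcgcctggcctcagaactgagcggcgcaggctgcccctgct
Pgk1: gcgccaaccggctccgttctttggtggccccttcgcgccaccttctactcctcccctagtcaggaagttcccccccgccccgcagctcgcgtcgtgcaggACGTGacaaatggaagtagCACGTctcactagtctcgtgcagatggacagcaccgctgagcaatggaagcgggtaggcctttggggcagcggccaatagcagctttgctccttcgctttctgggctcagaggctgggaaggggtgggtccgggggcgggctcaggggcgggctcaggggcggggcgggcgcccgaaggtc
Slc2a1: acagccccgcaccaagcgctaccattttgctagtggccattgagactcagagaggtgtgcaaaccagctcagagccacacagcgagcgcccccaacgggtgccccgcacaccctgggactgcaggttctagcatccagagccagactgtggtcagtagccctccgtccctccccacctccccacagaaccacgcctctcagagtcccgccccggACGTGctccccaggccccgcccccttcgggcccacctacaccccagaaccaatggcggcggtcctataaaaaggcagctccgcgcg
Mmp12: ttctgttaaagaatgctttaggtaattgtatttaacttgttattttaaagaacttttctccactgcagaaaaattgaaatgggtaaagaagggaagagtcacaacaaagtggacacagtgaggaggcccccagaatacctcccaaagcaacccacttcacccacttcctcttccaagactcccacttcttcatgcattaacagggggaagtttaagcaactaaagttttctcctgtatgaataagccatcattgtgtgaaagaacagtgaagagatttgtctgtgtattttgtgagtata
Bnip3 held 2 matches that overlap in a palindrome, Pgk1 held 2 on opposite strands, Slc2a1 held 1 and Mmp12 held 0. Over all 32851 promoters of the table, 19.6% held the sequence on either strand, and 21.8% of 27025 genes held it in at least 1 of their promoters. A match was found for 16 of the 19 hypoxia genes that have an entry (84.2%), for 12 of 19 glycolysis genes (63.2%), for 5 of 12 leading genes that were higher (41.7%) and for 3 of 11 that were lower (27.3%). None of 7 MHC class II genes held it. Several hypoxia genes are known from this sequence, so the counts describe the promoters and not binding in these cells. The sequence itself holds a CG, and promoters were not matched for their CG content. Setting the shares of the lists beside that of all genes is therefore no test.

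Genes of matrix, coagulation and angiogenesis were higher in part. Of 16 at 50 CPM or more, 5 were higher past the fold and 0 lower, with a median of 0.44. The 5 were Mmp12, Adam8, Mmp13, Vegfa and the coagulation factor gene F10. Fn1, which encodes fibronectin and was listed with alternative activation, measured 823, 1133 and 2110 CPM in members and 374, 463 and 760 CPM in Arg1-low cells, without overlap (2.25-fold, log2 1.17, 1.03 to 1.84). F13a1, the subunit of factor XIII that crosslinks fibrin, stood at 62.8, 154 and 627 CPM against 9.8, 74.7 and 239 CPM (log2 1.47). It was higher in 11 of 12 libraries and so was not past the fold. The collagenase Mmp13 had medians of 106 against 47.7 CPM (log2 1.15), whereas Mmp14, a membrane-bound protease, was nearly equal (0.08). Thrombospondin 1, Thbs1, lay at 0.29.

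Markers of alternative activation were mixed. Their sum was higher in the members in 12 of 12 libraries, at 1778, 2508 and 4103 CPM against 1242, 1725 and 2486 CPM. Of the 9 list genes at 50 CPM or more, 2 were higher past the fold, Ccl24 and Fn1, and 0 lower, and the list median was 0.22. The mannose receptor Mrc1 measured 362 against 319 CPM (log2 0.22). Chil3, a chitinase-like protein induced by interleukin 4, was higher in 8 of 12 libraries, and Retnla, another such gene, in 7 of 12 with ratios from -4.44 to 2.87. Ccl17, a chemokine of the same program, was lower in 12 of 12 libraries at medians of 6.77 against 42.6 CPM (log2 -1.38), below the minimum in both classes. Mgl2, a lectin shared with dendritic cells, was lower in 11 of 12 (-0.53).

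Of 20 lipid-handling and lysosomal genes, 4 were higher past the fold and 0 lower, with a median of 0.45. Beside Spp1, the scavenger receptor Msr1 (log2 0.77), the cholesterol exporter Abca1 (0.68) and galectin 3, Lgals3 (0.68), were the genes concerned. The glycoprotein Gpnmb was higher in 9 of 12 libraries (0.87). The lipid carrier Apoe was nearly equal (-0.06) and Trem2 differed little (0.21). In the heme and iron list, Hmox1, which breaks down heme, measured 233, 558 and 2091 CPM against 124, 214 and 928 CPM (log2 1.26, higher in 11 of 12 libraries). Library 4 was its highest in both classes. Pf4, platelet factor 4, known also from resident macrophages, reached 6089 CPM in the members of library 4 against a median of 1073 CPM, and was higher than in Arg1-low cells in 12 of 12 libraries (0.91). It was the 1 gene of 8 in the resident and scavenger list past the fold (median 0.18), and of the 9 heme and iron genes 0 were past it (median 0.23).

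Inflammatory cytokines and chemokines showed 1 gene of 20 past the fold, Inhba, with a median of 0.15. Il1b, the inflammatory interleukin 1 beta, was lower in 10 of 12 libraries at 1845 against 2081 CPM (log2 -0.23). The neutrophil chemokine Cxcl3 varied most between libraries, from 3.18 CPM in library 3 to 820 CPM in library 4. Ccl6 and Ccl9 were higher in 10 and 11 of 12 libraries (0.92 and 0.80). Interferon gamma response genes had 1 of 14 higher past the fold, Cd274, with 0 lower and a median of -0.24. Cd274, the checkpoint ligand PD-L1, measured 71.3, 112 and 165 CPM against 35.8, 70.9 and 122 CPM (log2 0.61). By contrast, the chemokine Cxcl10 was lower in 12 of 12 libraries (315 against 433 CPM, log2 -0.49). Nt5e, which encodes the adenosine-producing enzyme CD73, was past the fold too, at 62.7 against 31.6 CPM (0.92). These were the 2 of 9 checkpoint genes past the fold, on a list median of -0.02.

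The target of the drug was low in these cells, from which the gate had left out any with a UMI of Mki67 or Top2a. The paper describes EZH2 as expressed mainly in dividing cells, so the rule itself favored a low level in both classes. Ezh2 measured 12.5, 19 and 23.3 CPM in members and 16.3, 21.3 and 28 CPM in Arg1-low cells, ranges that overlap, with a log2 ratio of -0.20 and a higher level in 1 of 12 libraries. Its paralog Ezh1 (0.01) and the other core subunits of the polycomb complex, Eed (-0.03) and Suz12 (0.08), were nearly equal, and 0 of the 3 polycomb list genes at 50 CPM or more were past the fold (median 0.07). The heat shock, immediate early, type I interferon, complement and integrated stress response lists and the list of myeloid transcription factors had 0 genes past the fold in either direction, with medians between -0.16 and 0.11.

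Against Cxcl9-high macrophages, which also have low Arg1, the differences were wider. Of 2872 genes, 152 (5.29%) were higher and 97 (3.38%) lower past the fold, and as Cxcl9 entered the rule this contrast is a description as well. Mmp12 was 9.51-fold higher, at 64.7 CPM as the median of Cxcl9-high cells, and Spp1 was 5.81-fold higher, at 579 CPM. F13a1 was 8.34-fold higher (15.9 CPM in Cxcl9-high cells) and Hmox1 5.03-fold (97.7 CPM), both in 12 of 12 libraries. Of 19 interferon gamma response genes at 50 CPM or more, 15 were lower past the fold and 0 higher, with a median of -0.76. Serpina3g was 6.46-fold lower and the guanylate-binding protein Gbp2 3.79-fold lower. Of 8 MHC class II genes, 7 were lower past the fold (median -1.25), with H2-Eb1 2.83-fold lower at 4572 CPM in Cxcl9-high cells. Markers of other cells moved along. Dendritic cell markers without H2-DMb2 were at 12.8 against 27.5 CPM in pooled counts, lower in the members in 9 of 12 libraries, with a UMI of Clec9a in 0.662% of members and 3.99% of Cxcl9-high cells. Monocyte markers summed to medians of 2535 against 3222 CPM, lower in 12 of 12, but the list was mixed. Of its 9 genes at 50 CPM or more, 3 were lower and 1, F13a1, higher past the fold (median -0.35). In pooled counts Ly6a stood at 673 against 1343 CPM, and Ly6c2 at 264 against 171 CPM. The part of the dendritic cell and monocyte markers was not tested. Arg1-low cells therefore lay between both classes for MHC class II, with summed medians of 14907, 21597 and 29857 CPM in members, Arg1-low and Cxcl9-high cells.

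**Figure D3:**
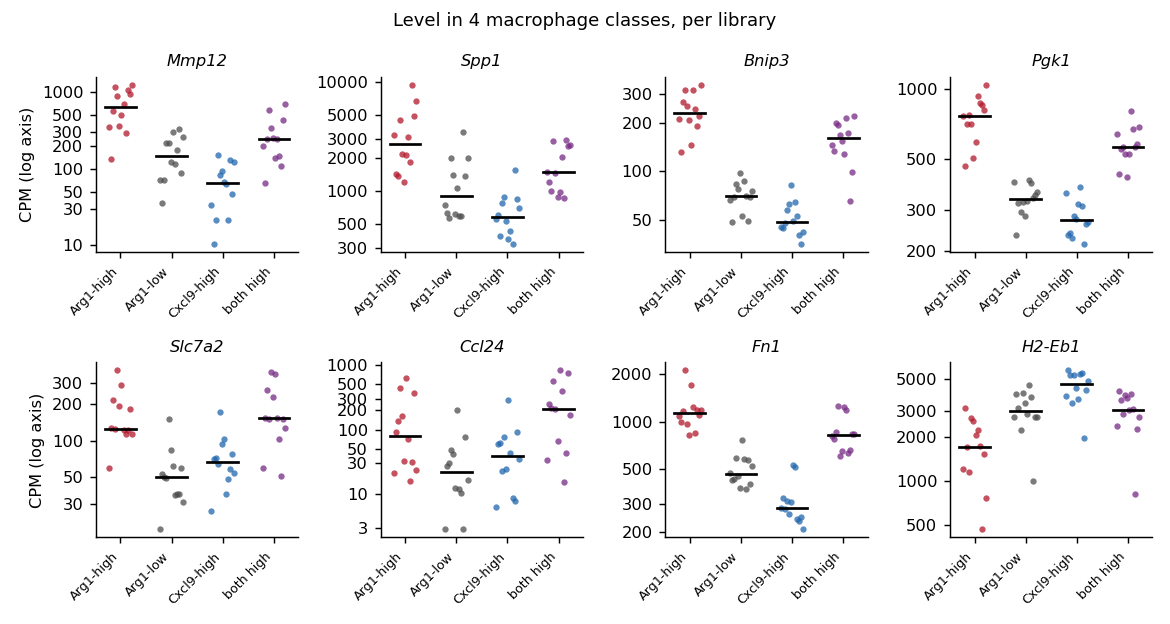
CPM (y axis, log) of 8 genes in Arg1-high, Arg1-low Cxcl9-low, Cxcl9-high and double-high macrophages (x axis), with 1 point per library, libraries with few double-high cells included, and the median as a bar. By median, Mmp12, Spp1, Bnip3, Pgk1 and Fn1 are highest in Arg1-high cells, Slc7a2 and Ccl24 in double-high cells, and H2-Eb1 is lowest in Arg1-high cells.

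Cells with both genes high were closer to the members. Against them, 17 of 2820 genes (0.603%) were higher and 31 (1.1%) lower past the fold in the 10 libraries with at least 50 double-high cells. Of the glycolysis genes 0 and of the hypoxia genes 1, Egln3, were past it, with medians of 0.21 and 0.32. Slc7a2 (log2 -0.25, higher in the members in 4 of 10 libraries), Nos2 (0.03, in 5 of 10) and Ccl24 (-0.61, in 1 of 10) were as high or higher in double-high cells. Mmp12 (1.06) and Spp1 (0.63), by contrast, were higher in the members in 10 of 10. MHC class II genes were lower in the members, with 5 past the fold and H2-Eb1 at -0.69, as were 11 of 18 interferon gamma genes.

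Within the members, cells were divided by Arg1 level into 4844 cells with 5 to under 10 UMIs per 10000, 4573 with 10 to under 20, 3664 with 20 to under 40 and 2333 with 40 or more. Median depth was higher at each step of these bins, with 6093.5, 6403, 6780 and 6969 UMIs, and its part in the differences was not tested. From the lowest to the highest bin, 141 of 2902 genes (4.86%) were higher past the fold in the libraries with enough cells and 90 (3.1%) were lower. Mmp12 was again the gene with the largest difference, at 218, 433, 784 and 1968 CPM over the 4 bins (7.93-fold by the median of libraries). In the pooled counts Cxcl3 went from 73.6 to 618 CPM, but by the median of libraries the difference was 5.78-fold and 1 of 12 libraries went the other way (log2 -0.21). Egln3 went from 21.8 to 147 CPM, Inhba from 31.2 to 211 CPM, Nos2 from 12.1 to 106 CPM and Ndrg1 from 45.1 to 219 CPM. Ankrd37, Rgcc, Hmox1 and Ccl24 completed the 10 genes most like Arg1 by this measure. All 10 were higher at every step, in the pooled counts.

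The hypoxia list summed to 2895, 3680, 4642 and 6253 CPM over the bins, 2.06-fold higher at the top and higher in 12 of 12 libraries. Glycolysis followed with 8890, 10834, 13218 and 16763 CPM (1.79-fold, 15 of 17 genes past the fold). MHC class II genes went the other way, at 17697, 15742, 14262 and 10754 CPM (0.66-fold, lower in 12 of 12 libraries, with 6 of 7 genes past the fold). The sums of complement genes (0.72-fold) and of macrophage markers (0.80-fold) were also lower at the top. Of 10 complement genes 2 were lower and 1 higher past the fold, and of 12 macrophage markers 2 were lower and 0 higher. Neutrophil markers went from 312 CPM in the lowest to 416 CPM in the highest bin (1.23-fold, higher in 8 of 12 libraries). Tumor and stromal markers went from 22.6 to 31.1 CPM (1.34-fold, in 10 of 12), and the part of either was not tested. Dendritic cell markers, without the MHC class II gene H2-DMb2 of that list, went from 17.1 CPM in the lowest to 9.80 CPM in the highest bin, lower in 10 of 12 libraries, and their part in the MHC class II values was not tested. The alternative activation sum was 1.74-fold higher at the top, in 12 of 12 libraries, with 2 of 10 genes higher past the fold and 0 lower. Among single genes, chosen after their values were seen, Tmem176b went from 187 to 48.3 CPM and Cx3cr1, the fractalkine receptor of monocyte-derived and resident macrophages, from 328 to 118 CPM. These sums are pooled over libraries. Within libraries, the hypoxia and glycolysis sums were higher at every step of Arg1 in 12 of 12, and the MHC class II sum was lower at every step in 10 of 12.

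**Figure D4:**
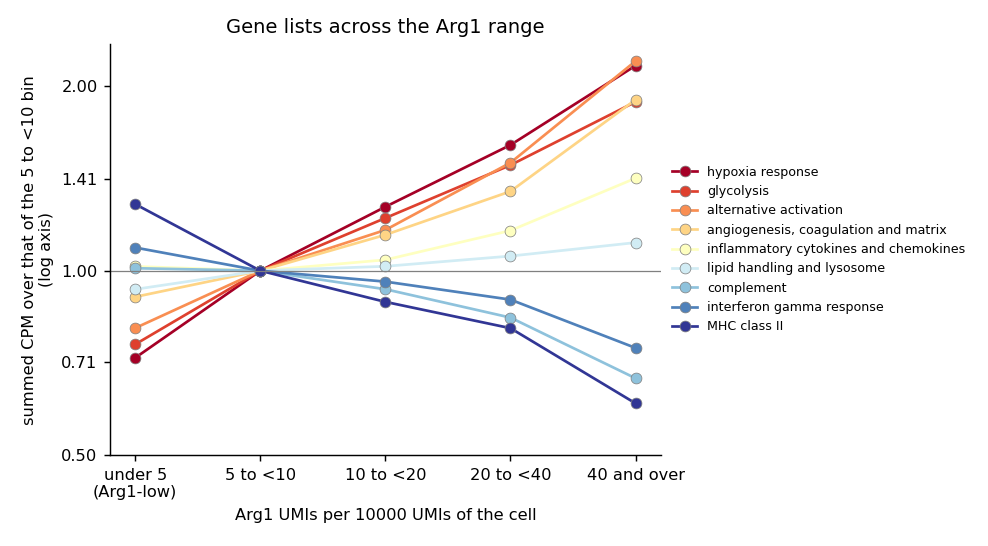
Summed CPM of 9 gene lists (y axis, log, relative to the bin with 5 to under 10 Arg1 UMIs per 10000) in Arg1-low cells and the 4 Arg1 bins of the members (x axis). Hypoxia response goes from 2895 to 6253 CPM and MHC class II from 17697 to 10754 CPM over the bins of the members, and both change at every step.

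Members also varied in their level of MHC class II, although this level was not independent of Arg1, being lower in the higher Arg1 bins. In each library they were split at the median of their summed H2-Aa, H2-Ab1, H2-Eb1 and Cd74 UMIs per UMIs of the cell, into 7704 MHC-II-low and 7710 MHC-II-high cells of nearly equal depth (medians of 6510.5 and 6504.5 UMIs). Of 2829 genes, 48 (1.7%) were higher and 41 (1.45%) lower past the fold in MHC-II-low cells. The 4 genes of the split are among those lower, which the split fixed. The genes named here were chosen after their values were seen, CPM values are of counts pooled over libraries, and log2 ratios are medians of libraries. MHC-II-low cells had more Folr2, the folate receptor of resident-like macrophages (93.6 against 25.9 CPM), Cbr2 (76.5 against 17.0 CPM), Fcrls (451 against 144 CPM), Gpnmb (291 against 109 CPM), F13a1 (310 against 125 CPM), the phosphatidylserine bridging ligand Gas6 (153 against 59.1 CPM) and Pf4 (2903 against 1214 CPM). All 7 were higher in 12 of 12 libraries.

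MHC-II-high members had more of some monocyte genes and of other genes. Ccr2, the receptor by which monocytes leave the blood, measured 280 against 105 CPM, Ly6c2 341 against 186 CPM, Ear2 78.5 against 9.19 CPM, Mgl2 113 against 23.1 CPM and Il1b 2421 against 1211 CPM. Of the 12 genes on the monocyte list, 9 had a median above that of MHC-II-low cells, with 3 past the fold, among them Plac8 at 621 against 362 CPM, and 1 was past the fold in MHC-II-low cells, F13a1. Cx3cr1 (261 against 228 CPM) was higher in MHC-II-low cells in 10 of 12 libraries, and Vcan was nearly equal (log2 0.10). Dendritic cell genes were low but also higher in MHC-II-high cells. Without H2-DMb2, which is itself an MHC class II gene, their sum was 16.2 against 9.34 CPM, higher in 10 of 12 libraries, with Clec9a at 1.48 against 0.41 CPM and Xcr1 at 0.94 against 0.22 CPM, and their part was not tested. Arg1 itself differed little, at 2602 CPM in MHC-II-low and 2143 CPM in MHC-II-high cells (log2 0.30). Spp1 was higher in MHC-II-low cells in 12 of 12 libraries (4343 against 2293 CPM, log2 1.07), as was Mmp12 (848 against 565 CPM, 0.64). Ccl24 was lower there in 11 of 12 libraries (133 against 300 CPM in pooled counts, median log2 ratio of libraries -1.97), although both Mmp12 and Ccl24 led the comparison with Arg1-low cells. Fn1 (0.08), Vegfa (-0.02), Slc7a2 (-0.09), Nos2 (0.08) and Gapdh (0.17, higher in MHC-II-low cells in 11 of 12 libraries) were nearly equal in both sets. Other hypoxia and glycolysis genes leaned to MHC-II-low cells, among them Bnip3 (0.60, in 11 of 12) and Pgk1 (0.29, in 12 of 12). Hmox1 did so too (1.01, in 11 of 12). Aldoc (-0.46, in 0 of 12), Pfkp (-0.20, in 2 of 12) and Hif1a (-0.13, in 2 of 12) leaned the other way.

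**Figure D5:**
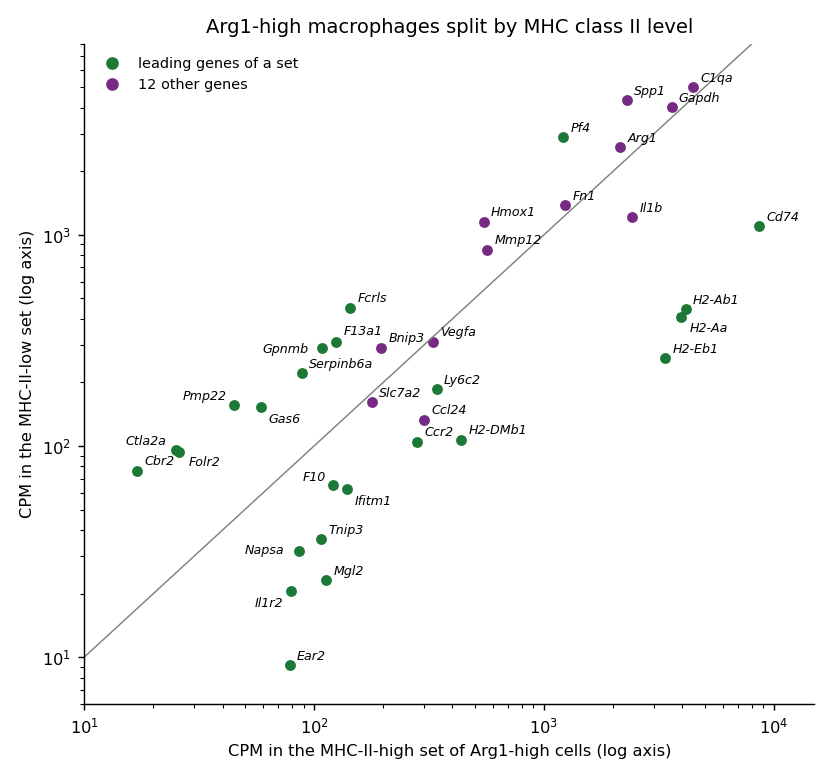
CPM in MHC-II-low members (y axis, log) against CPM in MHC-II-high members (x axis, log), both summed over 12 libraries, with the line of equality. Green points are the genes leading either set and purple points other named genes. Folr2, Cbr2, Pf4, Gpnmb, Hmox1 and Bnip3 lie above the line, Ear2, Mgl2, Ccr2 and Ly6c2 below it, and Fn1, Vegfa, Slc7a2 and Gapdh next to it.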

How the data were processed

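CD45+ cells of MC38 tumors from 12 mice were profiled with the 10X Genomics 3′ v3 kit. The authors deposited the raw UMI counts in a single matrix with 31053 genes, without normalization. The matrix header names Cell Ranger 3.0.2, the submitters' processing notes Cell Ranger 2.1.1 and mm10, and 30934 gene IDs (99.6%) were found in GENCODE M21. The filter on genes and mitochondrial UMIs was the one in the study's methods, and it left fewer cells than the study states. Counts were summed per class and library, scaled to CPM and compared within libraries, with 5 CPM added. Genes needed 50 CPM in either class, and genes of the rule and the 13 mitochondrial genes were left out. Named were the 15 genes with the highest and the 15 with the lowest ratio of the same sign in every library, genes of 19 lists and the 10 genes rising most over the Arg1 bins. The members and lists were chosen with earlier results of these data known. As no sample label names the library numbers and none was assigned from library order or size, no groups were formed and no p-value was computed. Intervals of shares are exact binomial (Clopper-Pearson, 95%) and hold the error of counting alone. No doublet caller was run, and leaving out the 10% deepest cells per library was tried instead. Y-linked library sets were added as an alternative after the data were seen. The script was tested on simulated data. The T cell background and sums without H2-DMb2 were also added after the data were seen. Rows of Clec7a, Cxcl11 and Lilrb4b were not analysed here. The software was Python 3.11.15 with pandas 2.3.3, numpy 2.4.6, matplotlib 3.10.9 and scipy 1.17.1.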

Additional observations from a re-analysis of the deposited data

How the results depend on the processing

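EZH2i was not compared with vehicle because the libraries were not assigned to groups or replicates. The cell classes were paired within each library and compared without a test. The share of members in the gate, 28.6%, became 31.7% with a mitochondrial limit of 5%, 19.6% with an Arg1 limit of 10 per 10000, 27.6% with at least 2 Arg1 UMIs and 26.1% after thinning to 1000 UMIs. It was 26.7% in the libraries with Y-linked transcripts and 33.5% in those without, and 26.2 to 30.7% with each library left out. The count of genes higher than in Arg1-low cells, 72, became 117 with a minimum of 10 CPM, 121 with none, 24 at 2-fold and 32 after thinning, and was 67 to 88 with each library left out. The count of genes lower, 19, became 33 with an Arg1 limit of 10, 30 against cells without an Arg1 UMI, 43 with a minimum of 10 CPM, 50 with none, 3 at 2-fold, 6 after thinning, 12 in the libraries with Y-linked transcripts and 36 in those without, and was 17 to 23 with each library left out. Against Cxcl9-high cells, the 152 genes higher became 275 with a minimum of 10 CPM and 86 after thinning (143 to 163 with each library left out), and the 97 genes lower became 151 and 44 (92 to 105). The cause of these changes was not tested, apart from the fewer or more genes compared under another minimum. After thinning, the gate and the classes were formed anew on the thinned UMIs, so those values cover partly other cells. Leaving out the 10% deepest cells of each library gave a share of 28.3%, with 72 genes higher and 19 lower, and leaving out cells with a neutrophil, T, NK or B cell marker UMI gave 76 and 19. Of 7420 values of 265 named genes under 28 settings, 80 moved by more than the spread over libraries, 57 of them after thinning, and 0 changed sign where called. Depth limits the members near the Arg1 limit and library 6, which holds 485 of the 572 members with a single Arg1 UMI.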
